A study of Arabidopsis thaliana with 12 samples.

Results

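The MYC branch of the jasmonate response was followed through 10 genes in seedlings of Arabidopsis thaliana. The genes were chosen by name, as the rows for MYC2, MYC3, MYC4, VSP1, VSP2, TAT3, CORI3, CLH1, ANAC019 and ANAC055, out of 32846 genes in the table. RNA was sequenced from pools of whole seedlings of Columbia 0, in 4 groups of 3 libraries. The groups were irr with Pep1, wild type (WT) with Pep1, irr with water, and WT with water. The mutant is labelled rrm/irr, with no second allele and no complemented line among the samples. Plants 7 to 10 days old, about 15 to a well of liquid half-strength MS medium, stood for 3 h and then received 1 µM peptide or water for 24 h in constant light. The peptide is AtPep1, which plants release from a precursor protein on damage and sense through receptor kinases at the cell surface. Because whole seedlings were pooled, fewer cells of a type and less RNA per cell cannot be told apart.

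Jasmonate is a hormone of wounding and insect attack. Its active conjugate brings the receptor COI1 together with JAZ proteins, which are then degraded, and this frees the transcription factors MYC2, MYC3 and MYC4 that the JAZ proteins hold inactive. The MYC factors act on wound-response genes such as VSP1 and VSP2 and on the NAC factor genes ANAC019 and ANAC055, while a separate branch that also needs ethylene runs through ORA59 and ERF1 to plant defensins.

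The steps in the low values give each library's depth: 56.5 M reads (M for 1e+06) in irr water replicate 3, and between 17.4 and 28.6 M in the other 11. Some of these totals are above the 20 M raw reads that the protocol states for a sample, for a reason not given in the labels, and a step may stand for a read or for a fragment, so read counts below carry that doubt. The locus known for IRR, AT3G23900, averaged 11.2 ± 0.573 FPKM in irr with Pep1, 11.6 ± 0.995 in WT with Pep1, 11.95 ± 0.72 in irr with water and 12.8 ± 1.93 in WT with water (SD, n = 3). Its level does not separate the genotypes, so every genotype direction rests on the labels. The median SD of a gene on the log2 scale was widest in irr with Pep1, at 0.186, against 0.121 in WT with Pep1, 0.164 in irr with water and 0.145 in WT with water. Marker genes of leaves and of roots were both detected in every group.

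Levels are in FPKM, read fragments scaled by gene length and library total, so genes can be set beside each other. MYC2, MYC3 and ANAC055 were well expressed, while VSP1, VSP2 and TAT3 were close to silent. MYC3 had the highest mean level of the 10 genes, above that of 90.1% of the genes with any signal, followed by ANAC055 above 87.4% and MYC2 above 78.7%. CLH1 stood above 60.4% of genes, MYC4 above 56.4%, ANAC019 above 47.8% and CORI3 above 38.9%. VSP1, VSP2 and TAT3 were under 1 FPKM in all 12 libraries, as were 7055 of the 26190 genes with any signal, or 26.9%. In that order, the libraries of ANAC055 overlapped in level with those of MYC3 and of MYC2, and those of CLH1 with those of MYC4. Those of ANAC019 overlapped with those of CLH1, MYC4, CORI3, VSP1, VSP2 and TAT3, and those of CORI3 with those of VSP2. VSP1, VSP2 and TAT3 overlapped with each other. The libraries of MYC3 and MYC2 did not overlap.

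**Figure D1:**
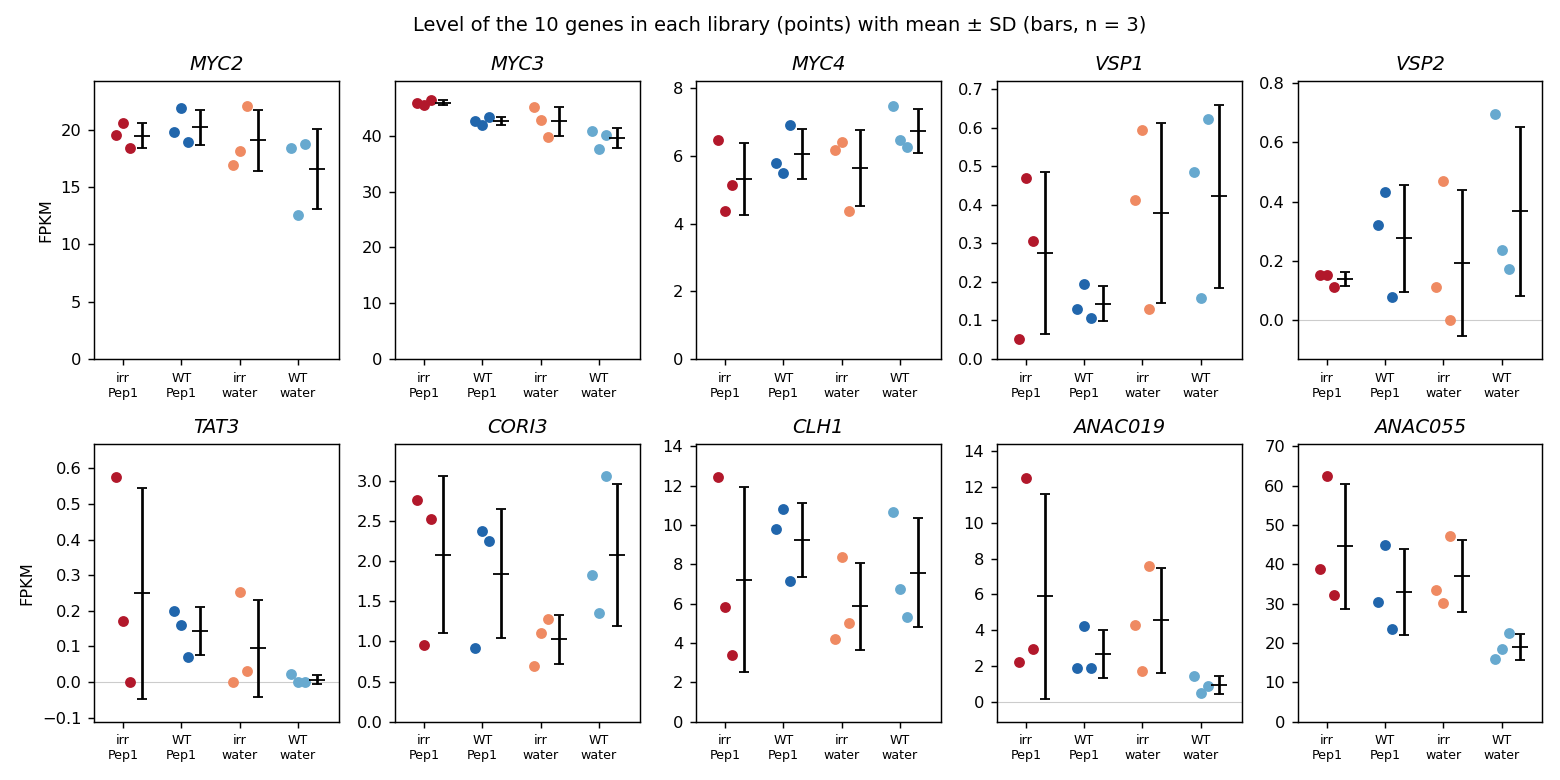
Level in FPKM (vertical axis, a separate linear scale for each gene) of the 10 genes in the 12 libraries, with 1 point per library and bars for mean ± SD, n = 3 per group. The WT water libraries are the lowest for ANAC055 and ANAC019, MYC3 is nearly level, and VSP1, VSP2 and TAT3 stay under 1 FPKM.

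Ratios were tested on log2(FPKM + 1) with limma and Benjamini-Hochberg adjustment over all 18177 genes with at least 1 FPKM in at least 3 libraries, and a gene was called at an adjusted p under 0.05. Of the 10 genes, 7 passed that filter, and VSP1, VSP2 and TAT3 did not. The mean effect of the irr genotype over both treatments gave 1 call, ANAC055, where 12.4% of all genes were called, 8.55% higher in irr and 3.9% lower. The mean effect of Pep1 over both genotypes gave 0 limma calls and 1 unadjusted p under 0.05 among the 7, where 11.6% of all genes were called, 6.1% higher with Pep1 and 5.45% lower. These splits depend on scaling: with equal library medians the mean effect of irr called 1495 genes higher and 1491 lower, in place of 1554 and 708, and that of Pep1 979 and 1407, in place of 1109 and 991. Within single groups, the count called was 0 of 7 for Pep1 in irr (0 unadjusted p under 0.05, with 1.99% of all genes called), 0 of 7 for Pep1 in WT (1 and 3.47%), 0 of 7 for irr against WT with Pep1 (0 and 1.53%) and 0 of 7 for irr against WT with water (2 and 3.92%). The interaction, which asks whether the Pep1 response differed between genotypes, called 0 of the 7 and 0 of all genes in the limma fit, with 0 and 1219 at an unadjusted p under 0.05. Its estimates for the 7 genes ran from -0.72 ± 0.73 for ANAC019 to 0.68 ± 0.42 for CORI3 on the log2 scale, and every 95% interval included 0.

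The median log2 ratio of the 7 genes was 0.22 for the mean effect of Pep1, beside 0.022 over all genes, and 0.08 for the mean effect of irr, beside -0.0030 over all genes. Comparisons within a treatment or genotype share control libraries: Pep1 in WT and irr with water both rest on the WT water libraries. Overlap was counted for the 7 genes tested, and the shares are of all 18177 genes tested. The 3 Pep1 libraries lay above the 3 water libraries without overlap for MYC3 in irr, as for 7.03% of all genes. In WT they did so for MYC2, MYC3, ANAC019 and ANAC055, as for 20.8%. The irr libraries lay above those of WT for MYC3 with Pep1, as for 10.4% of all genes, and for ANAC019 and ANAC055 with water, as for 17.7%, while CORI3 lay below with water, as did 10.4%.

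**Figure D2:**
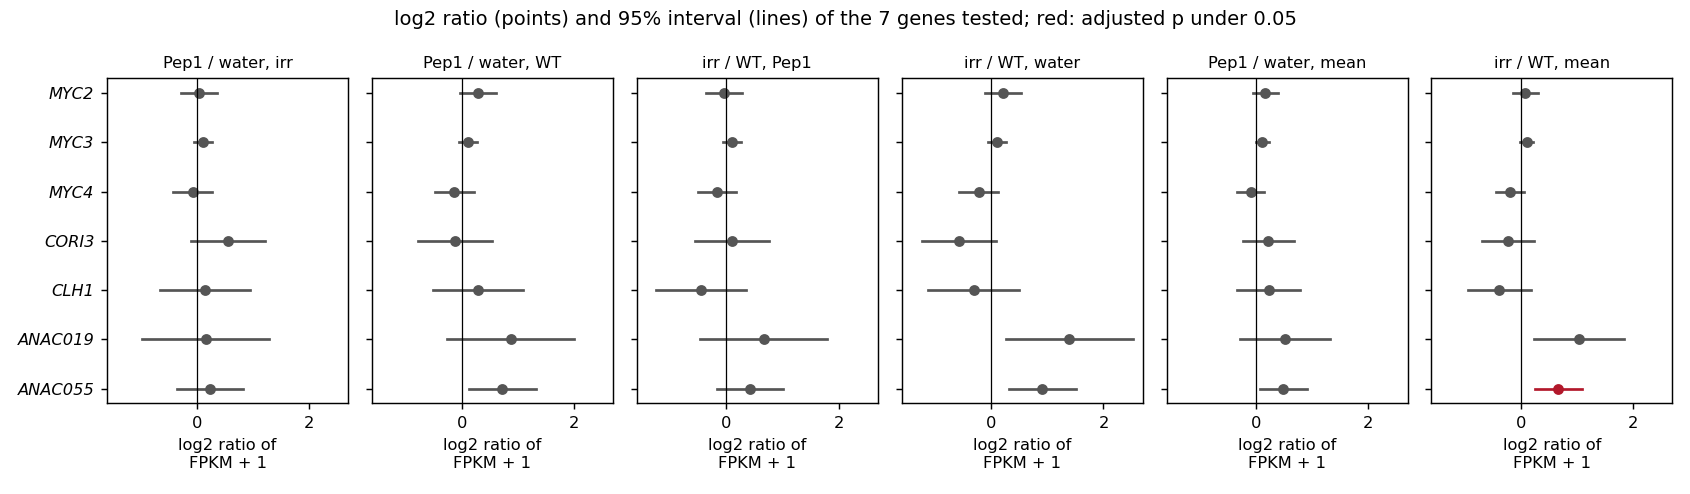
Log2 ratio of FPKM + 1 (horizontal axis, points) with its 95% interval (lines) for the 7 genes tested, in 6 comparisons, from limma over 12 libraries. The red point, ANAC055 for the mean of irr over WT, is the 1 call at an adjusted p under 0.05, and the intervals of ANAC019 are the widest.

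MYC2 [AT1G32640], the best known of the basic helix-loop-helix factors that JAZ proteins repress, was not called in any comparison. Its level was 19.6, 20.6 and 18.4 FPKM in irr with Pep1, 19.9, 21.9 and 18.9 in WT with Pep1, 16.9, 18.2 and 22.1 in irr with water, and 18.4, 12.5 and 18.8 in WT with water. The WT water library of replicate 2 is the lowest of the 12, and all 3 WT Pep1 libraries lie above all 3 WT water libraries. The log2 ratio for Pep1 in WT was 0.29 ± 0.15 (SE, limma adjusted p = 0.288), and for Pep1 in irr 0.04 ± 0.15 (adjusted p = 0.923). The mean effect of Pep1 was a ratio with a 95% interval of 0.958 to 1.31, and that of irr one of 0.902 to 1.23.

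MYC3 [AT5G46760], a close relative that acts beside MYC2, stayed within a narrow range. It had 45.8, 45.5 and 46.4 FPKM in irr with Pep1, 42.6, 42.0 and 43.4 in WT with Pep1, 45.1, 42.8 and 39.9 in irr with water, and 40.9, 37.6 and 40.2 in WT with water. The irr Pep1 libraries were the 3 highest, and lay above every library of irr with water and of WT with Pep1. Those differences were small: the mean log2 ratio was 0.11 ± 0.05 for Pep1 (adjusted p = 0.199) and 0.10 ± 0.05 for irr (adjusted p = 0.216), with 95% intervals on the ratio of 0.995 to 1.17 and 0.992 to 1.16.

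MYC4 [AT4G17880], the least expressed of the 3 factors, averaged 5.32 ± 1.06 FPKM in irr with Pep1, 6.07 ± 0.736 in WT with Pep1, 5.65 ± 1.12 in irr with water and 6.73 ± 0.656 in WT with water. Its mean log2 ratio was -0.20 ± 0.11 for irr (limma adjusted p = 0.257) and -0.10 ± 0.11 for Pep1 (adjusted p = 0.584). On the log2 scale the 95% intervals ran from -0.44 to 0.04 for irr and from -0.35 to 0.14 for Pep1. The irr Pep1 libraries had 6.46, 4.37 and 5.13 FPKM and the WT water libraries 7.48, 6.47 and 6.25, and the 4 groups overlapped.

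ANAC055 [AT3G15500], a NAC-domain transcription factor gene that MYC2 binds and activates, was the 1 gene of the 10 called. It had 38.9, 62.6 and 32.2 FPKM in irr with Pep1, 30.5, 45.0 and 23.5 in WT with Pep1, 33.6, 30.1 and 47.3 in irr with water, and 16.1, 18.5 and 22.5 in WT with water. All 3 WT water libraries lay below the other 9, an order that was not counted over all genes. Against WT water alone, 20.8% of genes tested lay higher without overlap in WT with Pep1, and 17.7% in irr with water. With Pep1, the libraries of the genotypes overlapped. Over both treatments it rose in irr by a log2 ratio of 0.66 ± 0.19 (limma adjusted p = 0.0429), a 1.58-fold ratio with a 95% interval of 1.19 to 2.12. The ratio was 1.88 with water (1.25 to 2.83, adjusted p = 0.0811) and 1.33 with Pep1 (0.886 to 2.01, adjusted p = 0.447), and the interaction was -0.50 ± 0.38 on the log2 scale (adjusted p = 0.895). Pep1 gave 0.73 ± 0.27 in WT (adjusted p = 0.153) and 0.23 ± 0.27 in irr (adjusted p = 0.701).

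The ANAC055 call was lost when any of 8 libraries was left out. Without irr Pep1 replicate 2, which had the highest level, the mean log2 ratio was 0.53 (adjusted p = 0.0791), and without irr water replicate 3 it was 0.57 (adjusted p = 0.102). Leaving out irr water replicate 1 gave an adjusted p of 0.0692, irr Pep1 replicate 1 one of 0.0562, WT Pep1 replicates 1 and 3 gave 0.0911 and 0.0967, and WT water replicates 1 and 2 gave 0.0994 and 0.0817. It was kept without each of the other 4 libraries, with the lowest adjusted p, 0.0175 at a log2 ratio of 0.76, without irr Pep1 replicate 3. The direction was the same in all 19 alternatives, with log2 ratios from 0.53 to 0.79.

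ANAC019 [AT1G52890], a paralogue with the same kind of DNA-binding domain, had 2.26, 12.5 and 2.98 FPKM in irr with Pep1, 1.90, 4.24 and 1.88 in WT with Pep1, 4.33, 1.76 and 7.59 in irr with water, and 1.45, 0.494 and 0.923 in WT with water. As for ANAC055, the WT water libraries were the 3 lowest and irr Pep1 replicate 2 the highest, an order that was not counted over all genes. The 3 libraries of irr with water lay above the 3 of WT with water. The mean log2 ratio of irr was 1.03 ± 0.37 (limma adjusted p = 0.0870), a ratio of 2.04 with a 95% interval of 1.17 to 3.55, and with water it was 1.39 ± 0.52 (adjusted p = 0.147). For Pep1 it was 0.88 ± 0.52 in WT (adjusted p = 0.366) and 0.16 ± 0.52 in irr (adjusted p = 0.908).

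Across the 12 libraries, log2 levels of ANAC019 and ANAC055 had a Pearson r of 0.889 and a Spearman rho of 0.937, a description over libraries that share their groups. Without the 2 libraries farthest out in ANAC019, irr Pep1 replicate 2 and irr water replicate 3, r was 0.79. MYC4 ran the other way, at r = -0.827 with ANAC055 and -0.814 with ANAC019, and MYC2 stood at 0.636 and 0.627. By that measure ANAC055 was 120th among the 18177 genes in likeness to ANAC019. The genes whose pattern was most like it were WRKY60 [AT2G25000] for ANAC019, at r = 0.951, and MSBP1 [AT5G52240] for ANAC055, at r = 0.976, over the same 12 libraries.

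**Figure D3:**
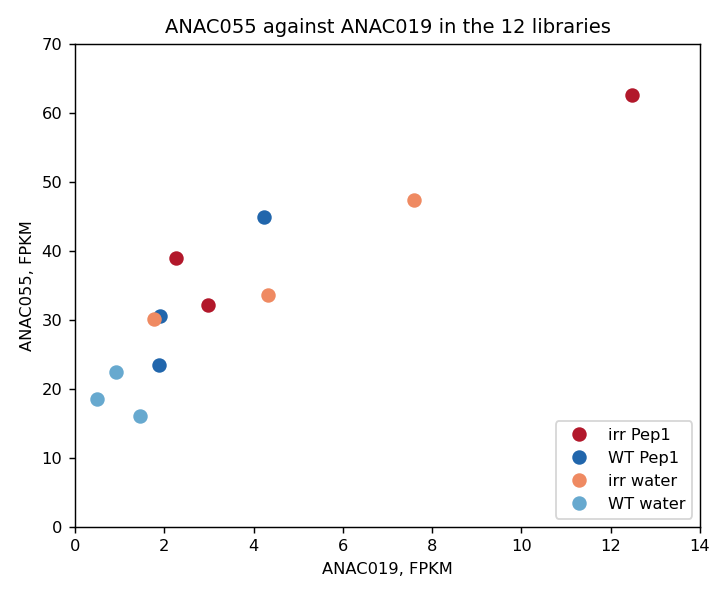
ANAC055 level (vertical axis, FPKM) against ANAC019 level (horizontal axis, FPKM) in the 12 libraries, 1 point each, coloured by group. The WT water libraries lie at the lower left, and irr Pep1 replicate 2 lies farthest to the upper right, at 12.5 and 62.6 FPKM.

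Leaf marker sums were highest in the WT water libraries. Summed over 8 leaf genes, FPKM ran from 34008 to 40686 in irr with water, below the 43530 to 47051 of WT with water, and from 25654 to 38006 in irr with Pep1, against 29759 to 35920 in WT with Pep1. For the mean effect of irr limma called 0 of the 8 leaf and 0 of 7 root markers tested, with 0 and 2 at an unadjusted p under 0.05. The 11 root markers summed to 68.8 to 82.1 in irr with water, against 68.0 to 89.0 in WT with water. With Pep1 the root sum was 62.1 to 70.9 in irr and 92.9 to 104 in WT. There limma called 1 of the 7 root markers lower in irr, where 1.53% of all genes were called. In that comparison 6 of 7 lay below 0, with 3 at an unadjusted p under 0.05. With water 0 of 7 were called and 5 lay above 0, so the mean effect of irr joins unlike parts for the root markers. None of the leaf or root markers was at 0 in every library of a group, and the part of leaf and root content in the NAC gene levels was not tested.

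VSP1 and VSP2 encode vegetative storage proteins and are widely used as readouts of the branch. VSP1 [AT5G24780] had 0.0513, 0.469 and 0.306 FPKM in irr with Pep1, 0.130, 0.194 and 0.106 in WT with Pep1, 0.413, 0.593 and 0.131 in irr with water, and 0.484, 0.159 and 0.623 in WT with water. VSP2 [AT5G24770] had 0.152, 0.154 and 0.113 FPKM in irr with Pep1, 0.320, 0.432 and 0.0785 in WT with Pep1, 0.111, 0.471 and 0 in irr with water, and 0.694, 0.236 and 0.173 in WT with water. The pair are close copies, so how reads were shared between them is uncertain; their sum lay between 0.131 and 1.18 FPKM, and 187 reads in all 12 libraries cover both. A 0 for VSP2 in irr water replicate 3 allows up to 0.0363 FPKM at 3 reads, by counting error alone. For VSP2 the irr Pep1 libraries lay below those of WT with water, groups that differ in both genotype and treatment. For VSP1 and VSP2 the libraries overlapped in each comparison of a single factor.

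TAT3 [AT2G24850], a tyrosine aminotransferase gene used as a jasmonate marker, rested on 49 reads. It had 0.576, 0.172 and 0 FPKM in irr with Pep1, 0.200, 0.160 and 0.0699 in WT with Pep1, 0, 0.252 and 0.0323 in irr with water, and 0.0213, 0 and 0 in WT with water. In the 4 libraries at 0, a count of 0 allows up to 0.101 FPKM in irr Pep1 replicate 3, 0.0744 in irr water replicate 1, 0.105 in WT water replicate 2 and 0.0771 in WT water replicate 3. A single read was counted in WT water replicate 1. In WT the 3 Pep1 libraries, at 7, 5 and 2 reads, lay above the 3 water libraries, at 1, 0 and 0. The lowest of these Pep1 values, 0.0699 FPKM, is under the 0.105 that a count of 0 allows in WT water replicate 2. Among the genes tested, which leave out TAT3, 20.8% lay higher without overlap in that comparison. No fold is given for these 3 genes; with no filter, limma called none of them in any comparison, with the lowest adjusted p at 0.318.

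CORI3 [AT4G23600], a coronatine-induced aminotransferase that splits cystine, had 2.75, 0.957 and 2.52 FPKM in irr with Pep1, 0.916, 2.37 and 2.24 in WT with Pep1, 0.690, 1.11 and 1.28 in irr with water, and 1.82, 1.35 and 3.05 in WT with water. The 3 irr water libraries lay below the 3 WT water libraries. The log2 ratio with water was -0.58 ± 0.30 (limma adjusted p = 0.287), and the interval of the ratio was 0.426 to 1.06. With Pep1 the genotypes overlapped, at 0.10 ± 0.30, and Pep1 in irr gave 0.56 ± 0.30 (adjusted p = 0.353).

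CLH1 [AT1G19670], a chlorophyllase gene induced by coronatine and methyl jasmonate, averaged 7.23 ± 4.69 FPKM in irr with Pep1, 9.26 ± 1.88 in WT with Pep1, 5.88 ± 2.22 in irr with water and 7.58 ± 2.77 in WT with water. The irr Pep1 libraries ran from 3.41 to 12.5 FPKM. The mean log2 ratio was -0.39 ± 0.26 for irr (limma adjusted p = 0.349) and 0.22 ± 0.26 for Pep1 (adjusted p = 0.616), with intervals on the ratio of 0.516 to 1.13 and 0.786 to 1.73. The genes closest in pattern to CLH1 were AT2G14460 and AT1G80150, both at r = 0.913. For MYC3 the closest was CB5-D, at 0.961, for MYC2 GATA27, at 0.917, for MYC4 AT1G11410, at 0.935, and for CORI3 XF1, at 0.873.

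Several genes that make or dispose of jasmonate passed the test for a mean effect, and most of these calls depended on the setting or on single libraries. Of 12 jasmonate synthesis genes, 4 rose with Pep1 and 5 in irr, with a median log2 ratio of 0.34 and 0.55 beside the all-gene 0.022 and -0.0030. Among all genes, 6.1% were called higher with Pep1 and 8.55% in irr. ACX1, a peroxisomal oxidase of the synthesis chain, rose in irr over both treatments by 0.71 ± 0.12 (limma adjusted p = 0.00507); it averaged 119 ± 32.1 FPKM in irr with Pep1, 75.1 ± 7.18 in WT with Pep1, 98.2 ± 13.6 in irr with water and 55.9 ± 5.25 in WT with water. Of 6 breakdown genes tested of 7, 3 rose with Pep1 and 2 in irr, with medians of 0.32 and 0.25. ST2A, a sulfotransferase that acts on a jasmonate derivative, rose with Pep1 by 1.72 ± 0.26 (adjusted p = 0.00291) and CYP94B3, which oxidizes the active conjugate, by 0.92 ± 0.18 (adjusted p = 0.00856). IAR3, a hydrolase of the same list, rose with Pep1 by 0.51 ± 0.12 (adjusted p = 0.0229). AOC3, of the cyclase step, gave 0.83 ± 0.24 with Pep1 (adjusted p = 0.0465) and 0.88 ± 0.24 in irr (adjusted p = 0.0361). OPCL1, a ligase of the synthesis chain, gave 0.71 ± 0.18 with Pep1 (adjusted p = 0.0259) and 0.59 ± 0.18 in irr (adjusted p = 0.0481). For Pep1, the calls of ST2A and CYP94B3 held in all 19 alternatives, IAR3 in 16, AOC2 in 15, OPCL1 in 11, AOC1 in 7 and AOC3 in 5. For irr, ACX1 held in all 19, KAT2 in 16, OPR3 in 13, IAR3 in 10, ST2A in 8, and AOC3 and OPCL1 in 6 each.

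In perception and repression, 1 gene was called higher for each mean effect, where 6.1% of all genes were called higher with Pep1 and 8.55% in irr. A count of 1 of 19 does not set the list apart from those shares. Of 19 genes tested of 20, JAR1, the enzyme that makes the active conjugate, rose with Pep1 by 0.27 ± 0.07 (limma adjusted p = 0.0410), with a list median of 0.10. That call held in 8 of 19 alternatives. JAZ1, a repressor and itself a target of MYC factors, rose in irr by 1.71 ± 0.31 (adjusted p = 0.00710), with a list median of 0.03. JAZ1 had 36.0, 86.6 and 17.5 FPKM in irr with Pep1, 15.5, 15.9 and 11.3 in WT with Pep1, 27.0, 16.6 and 33.2 in irr with water, and 5.85, 3.81 and 6.43 in WT with water. All 6 irr libraries lay above all 6 WT libraries, by a thin margin of 16.6 against 15.9 FPKM, and irr Pep1 replicate 2 was again the highest. How many of all genes separated in that way was not counted. The call held in all 19 alternatives.

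Other wound-response genes split. Of 7 tested of 12, 1 rose and 1 fell with Pep1, with a median of 0.08, and 2 rose in irr, with a median of 0.02. Among all genes, 6.1% were called higher and 5.45% lower with Pep1, and 8.55% higher in irr. KTI1, a Kunitz protease inhibitor, rose with Pep1 by 0.74 ± 0.16 and in irr by 0.70 ± 0.16 (limma adjusted p = 0.0139 and 0.0157), and the other rise in irr, of ARGAH2, held in 5 of 19 alternatives. BGLU18, a glucosidase of ER bodies, fell with Pep1 by 1.95 ± 0.20 (adjusted p = 0.000569), at 2.56 ± 1.06 FPKM in irr with Pep1, 1.88 ± 0.295 in WT with Pep1, 10.4 ± 3.22 in irr with water and 12.9 ± 5.09 in WT with water. RD22, a dehydration gene that MYC2 acts on, fell in irr with water by 1.44 ± 0.35 (adjusted p = 0.0426), at 38.1 ± 11.6 FPKM in irr and 102.8 ± 13.8 in WT. With Pep1 it was not lower in irr, at 75.4 ± 29.0 FPKM against 64.2 ± 30.5 in WT. Its mean effect of irr was not called. The RD22 call with water held in 10 of 20 alternatives, with an adjusted p of up to 0.149.

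The defensin branch rose with Pep1. Of its 11 genes, 7 were called higher with Pep1 (median 2.34) and 4 in irr (median 0.74), and none was called lower. Among all genes, 6.1% were called higher with Pep1 and 8.55% in irr. The largest rise was that of PDF1.2B, 6.60 ± 0.51 over both genotypes. PDF1.2A, PDF1.2B and PDF1.2C each reached 1 FPKM in 8 libraries: all those with Pep1, and irr water replicates 2 and 3. They passed the filter only through the treatment where they are high, so their calls with Pep1 are not independent of the filter. The mean effect of Pep1 joins a larger response in WT (median 2.90, 7 called) with a smaller one in irr (median 1.66, 3 called). Interaction estimates lay below 0 for 11 of 11 genes (median -1.40), with 0 limma calls and 4 unadjusted p under 0.05. PDF1.2A rose by 5.06 ± 0.65 and PDF1.3 by 4.86 ± 0.73 (limma adjusted p = 0.00132 and 0.00288). With water, PDF1.3 had 1.23, 35.3 and 72.3 FPKM in irr, a mean of 36.3 ± 35.5, against 0.293 ± 0.299 in WT, and limma did not call that difference. The mean effect of irr joins unlike parts: with Pep1 the median of irr over WT was -0.065, with 7 of 11 genes below 0, 0 limma calls and 1 unadjusted p under 0.05, while with water it was 1.38, with 11 of 11 above 0 and 3 called. Of the 4 calls for the mean effect of irr, PR4 held in all 19 alternatives, ORA59 in 14, CHIB in 8 and ERF1 in 6. ERF1 reached 1 FPKM in 4 libraries, all of irr, so it passed the filter only through the genotype where it is high. ORA59, the factor that joins jasmonate and ethylene signals, rose with Pep1 by 2.39 ± 0.16 (limma adjusted p = 8.02e-05) to 28.4 ± 7.43 FPKM in irr and 29.6 ± 5.70 in WT, against 8.23 ± 2.06 in irr with water and 2.52 ± 0.54 in WT with water. How reads were shared out among the PDF1 genes, which are near-identical, is uncertain.

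**Figure D4:**
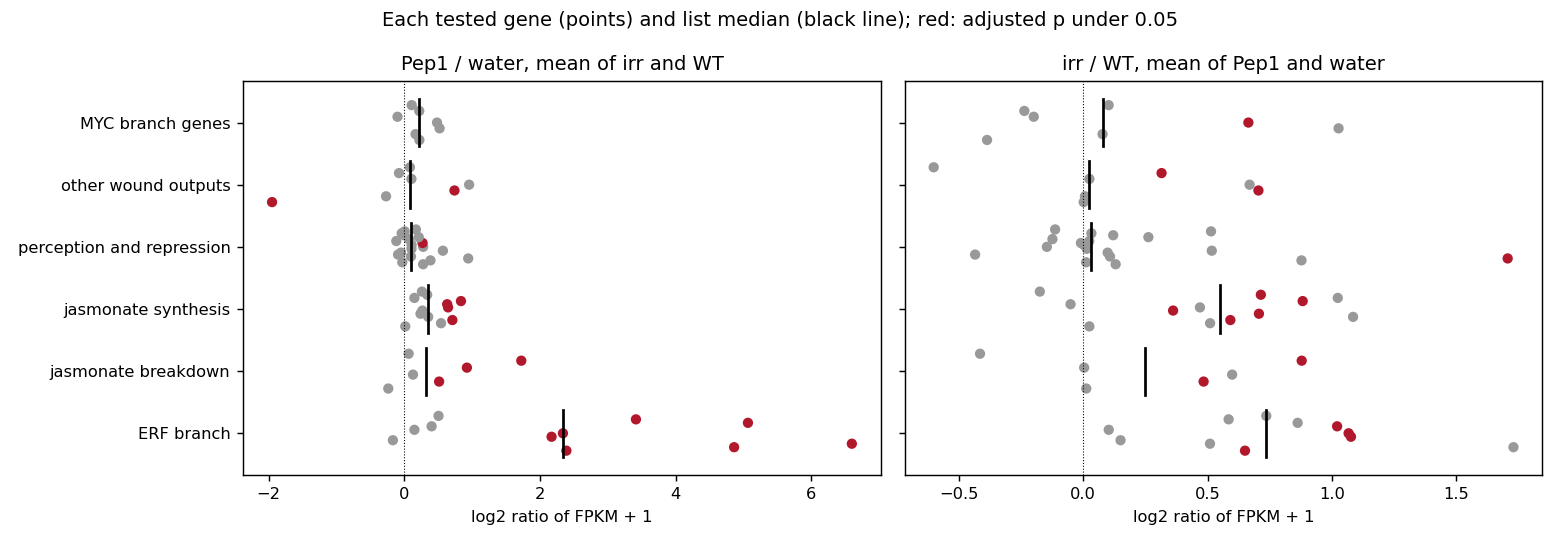
Log2 ratio of FPKM + 1 (horizontal axis) for each tested gene of 6 lists, with list medians as black lines, for the mean effect of Pep1 (left) and the mean effect of irr (right). Red points have an adjusted p under 0.05. The ERF branch, with a median of 2.34 for Pep1, lies to the right of the MYC branch genes, at 0.22.

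Relatives of ANAC019 and ANAC055 and of CLH1 were compared as well. Of 7 NAC relatives, 3 rose in irr and 0 with Pep1 in the limma fit, with 0 at an unadjusted p under 0.05 for Pep1 and medians of 0.43 and 0.11. Among all genes, 8.55% were called higher in irr and 6.1% with Pep1. ANAC092, a senescence factor, rose in irr by 0.99 ± 0.20 (adjusted p = 0.0102), with 48.7 ± 24.6 FPKM in irr and 31.6 ± 4.79 in WT with Pep1, and 56.3 ± 14.3 in irr and 19.4 ± 2.91 in WT with water. ATAF2 and ANAC029, also NAC factors, rose in irr by 0.85 ± 0.21 and 0.80 ± 0.20 (adjusted p = 0.0255 and 0.0276), calls that held in 12 and 13 of 19 alternatives. RD26, of the same subfamily as ANAC019 and ANAC055, differed by 0.04 ± 0.10 (adjusted p = 0.819). Of 8 chlorophyll breakdown genes, with a median of 0.20, PAO and PPH, of the main breakdown route, rose in irr by 0.50 ± 0.09 and 0.43 ± 0.08 (adjusted p = 0.00610 and 0.00761). The calls of ANAC092, PAO and PPH held in all 19 alternatives.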

How the data were processed

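Values are FPKM as deposited by the authors, 1 column for each of 12 libraries, with aligner, counting tool, build and annotation not given in the sources used here. The study calls its replicates biological and does not say whether cultures or days were separate, so the p-values cover the spread among these samples, which may be technical. Whole reads were recovered from the FPKM steps for 499 of 500 genes in all 12 libraries, within 0.01 of a read. Genes with at least 1 FPKM in at least 3 libraries were kept, and log2(FPKM + 1), with a pseudocount of 1, was fitted with limma 3.58.1 in R 4.3.3. The fit had 4 group means, 8 residual degrees of freedom, a mean-variance trend and two-sided tests with Benjamini-Hochberg adjustment, and was tested on simulated data. Fold changes are ratios of FPKM + 1 and understate those of low genes. All 10 genes are named, and from each other list up to 3 called genes with the largest change in any comparison, or the 2 most expressed if none was called. Listed genes outside that rule (ORA59, ERF1, PR4, CHIB, PDF1.2C, RD26, AOC1, AOC2, OPR3, KAT2, ARGAH2, MYB28 and MYB34) were named after their values were seen. The 14 other lists hold 130 genes, after 5 of 135 entries whose symbol was not in the reference were dropped. Genes and lists were chosen with earlier results of these data known. Alternatives were pseudocounts of 0.1 and 5, no filter, equal library medians, quantile normalization, a replicate block, quality weights per library, fitting the compared groups alone, and leaving out each library. A planned promoter motif search was not run: annotated lengths gave whole reads for 26.9% of 4459 genes, and the build is not known.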

Additional observations from a re-analysis of the deposited data

How the results depend on the processing

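Of 959 alternative values for the 7 genes tested, 912 kept direction and side of the threshold, 32 reversed (none with an adjusted p under 0.05), 4 passed the threshold newly and 11 no longer passed. Of 82 calls of other listed genes, 33 held under every alternative. For irr with water, the number of the 10 genes called was 1 when the 2 groups were fitted alone (ANAC055, adjusted p = 0.0327) and 0 to 2 with single libraries left out, with ANAC019 (0.0463) and ANAC055 (0.0344) called without irr Pep1 replicate 2. For the mean effect of irr it was 0 with a pseudocount of 5 (ANAC055 at 0.0508), 0 with no filter (0.0804), 0 with the replicate block (0.0564) and 0 to 2 with single libraries left out, where ANAC019 was called without irr water replicate 2 (0.0410). ANAC055 was called with a pseudocount of 0.1 (0.0411), equal medians (0.0376), quantile normalization (0.0384) and quality weights (0.0285). Replicate numbers did not pair the samples: 3 of 18 correlations between same-numbered libraries were over 0.1, from -0.523 to 0.194, so the block is not evidence of a weaker effect. Reversed log2 ratios under library quality weights were MYC4 0.015 and ANAC019 -0.15 for Pep1 in irr, CLH1 0.023 for irr with Pep1, and MYC3 -0.014 and CLH1 0.29 for the interaction. With single libraries left out, Pep1 in irr ran from -0.039 to 0.14 for MYC2, -0.22 to 0.038 for MYC4, -0.28 to 0.525 for CLH1, -0.48 to 0.55 for ANAC019 and -0.036 to 0.43 for ANAC055. CORI3 ran from -0.30 to 0.14 for Pep1 in WT and -0.16 to 0.40 for irr with Pep1, MYC2 from -0.093 to 0.0078 for irr with Pep1 and -0.011 to 0.13 for the mean of irr. The interaction ran from -0.045 to 0.043 for MYC3, -0.0885 to 0.17 for MYC4 and -0.57 to 0.24 for CLH1. The cause of these changes was not tested. Scaling moved the split of higher to lower calls over all genes beyond the values given above: for irr with water, 538 and 175 as reported, 433 and 289 with equal medians, and 466 and 327 with quantile normalization, and for the mean effect of irr 1510 and 1529 with quantile normalization. For Pep1 in WT the split was 387 and 243 as reported and 313 and 324 with equal medians. Depth limits VSP1, VSP2 and TAT3, which rest on 236 reads in all.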

Other observations

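Copies of the aminotransferase genes were measured beside TAT3 and CORI3. AT4G28420, a relative of TAT3, averaged 2.77 ± 2.74 FPKM in irr with Pep1, 0.104 ± 0.12 in WT with Pep1, 1.62 ± 0.771 in irr with water and 0.0137 ± 0.0238 in WT with water (SD, n = 3). It was called higher in irr, at a log2 ratio of 1.43 ± 0.28 (limma adjusted p = 0.00864). AT4G28420 reached 1 FPKM in 4 libraries, all of irr, so it passed the filter only through the genotype where it is high. TAT7, a further tyrosine aminotransferase, rose in irr by 0.43 ± 0.08 (adjusted p = 0.00795), with 110.4 ± 3.94 FPKM in irr and 97.8 ± 11.3 in WT with Pep1, and 132.2 ± 16.9 in irr and 81.6 ± 7.61 in WT with water. Both calls held in all 19 alternatives, which include the fit with no filter.

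MYB factors of glucosinolate synthesis, known partners of MYC factors, split in irr: of 4 tested genes of 6, 2 rose and 2 lay below 0 without passing the threshold. Among all genes, 8.55% were called higher in irr. MYB51 rose by 1.93 ± 0.36 (limma adjusted p = 0.00779) and MYB122 by 1.73 ± 0.24 (adjusted p = 0.00232), both indole factors, and both calls held in all 19 alternatives. MYB34, also an indole factor, gave -0.57 ± 0.18 (adjusted p = 0.0552), at 2.24 ± 0.601 FPKM in irr and 4.57 ± 0.41 in WT with water, and MYB28, an aliphatic one, gave -0.45 ± 0.20 (adjusted p = 0.160), at 2.54, 3.98 and 1.59 FPKM in irr and 6.08, 4.02 and 3.32 in WT with water. For the mean effect of Pep1, MYB122 also gave 1.46 ± 0.24 (adjusted p = 0.00437). Taken singly, Pep1 was called in irr and not in WT, and the interaction was not called. MYB122 had 10.3, 13.5 and 4.82 FPKM in irr with Pep1, against 0.816, 0.497 and 0.500 in WT with Pep1. With water it had 1.69, 0.167 and 1.26 in irr and 0.0508, 0 and 0.184 in WT. MYB122 reached 1 FPKM in 5 libraries, all of irr, so it passed the filter only through the genotype where it is high. Of 8 abscisic acid outputs tested of 9, HAI1, a protein phosphatase, was called for Pep1 in irr, at 1.16 ± 0.17 (limma adjusted p = 0.0171). It was also called for irr against WT with Pep1, at 0.93 ± 0.17 (adjusted p = 0.0247). HAI1 reached 1 FPKM in 3 libraries, all of irr with Pep1, so it passed the filter only through the group where it is high. These 2 calls are therefore not independent of the filter. They held in 15 and 11 of 17 alternatives, and leaving out any irr Pep1 library dropped HAI1 from the fit. RD29B fell in irr by 0.62 ± 0.18 (adjusted p = 0.0451) and ABI5 rose with Pep1 by 0.53 ± 0.15 (adjusted p = 0.0430), held in 9 and 7 of 19 alternatives.

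Of the other marker lists, 2 of 8 leaf genes, LHCB1.1 and RBCS1A, fell with Pep1 by 0.55 ± 0.16 and 0.38 ± 0.10 over both genotypes (limma adjusted p = 0.0426 and 0.0289), where 5.45% of all genes were called lower. These calls held in 5 and 11 of 19 alternatives, with adjusted p up to 0.279 and 0.350 and the RBCS1A ratio as small as -0.17. Of 7 root markers tested, EXP7 fell with Pep1 in irr by 1.83 ± 0.36 (adjusted p = 0.0312), where the list median was -0.041 and 2 lay above 0. In WT, EXP7 gave 0.58 ± 0.36 with Pep1 (adjusted p = 0.392). PRP3 was lower in irr than in WT with Pep1, at -1.71 ± 0.34 (adjusted p = 0.0347), where the list median was -0.38 and 1 lay above 0. The calls of EXP7 in irr and of PRP3 held in 12 and 10 of 20 alternatives, and the PRP3 ratio ran from -3.77 to -0.61. Of 5 low-oxygen genes tested of 7, LBD41 rose with Pep1 by 0.56 ± 0.09 over both genotypes (adjusted p = 0.00291), in all 19 alternatives. Of 5 flower genes, PI and SEP3 passed the filter and neither was called.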
